A study of Danio rerio with 26 samples.

Results

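The genes described here carry the symbols of subunits of the constitutive proteasome and were measured by RNA sequencing in 26 brains of male zebrafish (Danio rerio). They were taken by symbol, case ignored, as the rows of both count tables that begin with psma, psmb, psmc or psmd and a digit. The immunoproteasome genes psmb8, psmb9, psmb10, psmb12 and psmb13 were left out. This gave 43 genes of 32105, 18 counted with the core particle (psma and psmb) and 25 with the regulatory particle (psmc and psmd). Among the 25, PSMC3IP matched by symbol but encodes no subunit. PSMD5, PSMD9 and PSMD10 encode assembly chaperones, and are counted with the subunit genes in all counts, medians and sums below.

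Every fish carried a label of exposure to rotenone, a plant compound that inhibits complex I of the mitochondrial respiratory chain, and no untreated brain was analysed here. One group held 7 fish aged 3 years at 37.5 nM, of a strain given as AB JxTu Tg(flk:mCherry). The transgene label names a reporter driven by the flk promoter, which is active in endothelial cells. Another had 9 fish aged 1 year at 37.5 nM, and the last had 10 fish aged 1 year at 3.75 nM, both of the strain AB JxTu. Age and strain label cannot be told apart, and concentration and count table cannot be told apart either, since the 3.75 nM libraries were deposited apart from the rest. The labels give each fish a number and do not mention pooling, and the length of the exposure is not given in the sources used here.

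The proteasome is the main protease of the cytosol and nucleus and degrades proteins tagged with ubiquitin. Its core particle is a barrel of stacked rings, with alpha subunits at the gates and beta subunits inside, and only some of the beta subunits cut peptide bonds. The regulatory particle caps the barrel, binds and removes the ubiquitin tag, and unfolds the substrate with a ring of ATPases. Neurons depend on it for protein turnover at synapses, and cells can raise transcription of most subunits together through the factor NFE2L1. The roles named here are known from yeast and mammals.

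Library totals ranged from 20609926 to 36028646 counts, and all levels are given as CPM (a count scaled to a common library total, with TMM factors for composition). Summed markers of neurons ranged from 8095 to 9959 CPM and those of oligodendrocytes from 6834 to 18914 CPM, so the brain label held in all 26 libraries. In 10 libraries, a list of eye and pineal, skeletal muscle, pituitary or skin markers stood over 1.5 log2 units above its median. They were 2 libraries from 3-year fish, 4 from 1-year fish at 37.5 nM and 4 from 1-year fish at 3.75 nM. Markers of immune cells differed with age at 37.5 nM. In the 3-year fish, 8 of 16 tested microglia and macrophage genes and 6 of 7 tested lymphocyte genes were higher, against 4.92% of all genes. In whole brain, fewer cells of a type and less RNA per cell cannot be told apart.

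Most subunit genes were abundant, but their levels differed, from 2.12 to 92.0 CPM per kilobase of gene length among those tested. Over all 26 libraries, the 41 genes with enough counts to be tested had a median of 44.0 CPM per kilobase of gene length, against 5.41 CPM per kilobase over the 19567 genes tested in both comparisons. Of these 41 genes, 35 lay above the upper quartile of all tested genes (14.8 CPM per kilobase) and 29 above the upper decile (35.0 CPM per kilobase). The core genes had a median of 48.0 and the regulatory genes one of 42.3 CPM per kilobase.

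Among core genes, PSMB4, a structural beta subunit, was the highest per length at 92.0 CPM per kilobase. It was followed by the alpha subunit PSMA3 (75.1 CPM per kilobase) and the beta subunits PSMB1 (75) and PSMB3 (72.2). The 3 beta subunits that carry the active sites were PSMB5 (chymotrypsin-like activity) at 70.0, PSMB7 (trypsin-like) at 57.6 and PSMB6 (caspase-like) at 47.5 CPM per kilobase. Among regulatory genes, the lid subunit PSMD6 was the highest at 86.7 CPM per kilobase. The ATPases PSMC2, PSMC5 and PSMC4 stood at 67.8, 63.0 and 62.1 CPM per kilobase. PSMC1 was the lowest ATPase gene at 25.8, beside psmc1b, a gene of the same subunit, at 46.5. Each gene was ranked apart, so subunits with more than 1 gene could rank higher as a whole.

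The psma6-like gene psma6l was the lowest of the 41 at 2.12 CPM per kilobase. Above it stood PSMD10 at 6.33, PSMD4 at 9.29, PSMD5 at 9.81, the lid subunit gene PSMD11 ENSDARG00000060150 at 10.2 and PSMD9 at 14.4 CPM per kilobase. PSMD10, PSMD5 and PSMD9 encode assembly chaperones, which leave before the finished complex forms, and PSMD4 is 1 of a pair of genes for the ubiquitin receptor Rpn10. Genes next to each other in this order could lie within their spread: in 3-year fish PSMB4 averaged 96.7 ± 8.97 and PSMD6 88.2 ± 8.75 CPM per kilobase (SD, n = 7). By plain CPM, which also counts gene length, the order of the highest genes was PSMD1, PSMD6, PSMC4, PSMD3 and PSMC2, at 137, 124, 123, 107 and 98.7 CPM. The rows ENSDARG00000103190 and ENSDARG00000099653, both named PSMD2, stood at 64.7 and 67.3 CPM and were ranked apart.

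**Figure D1:**
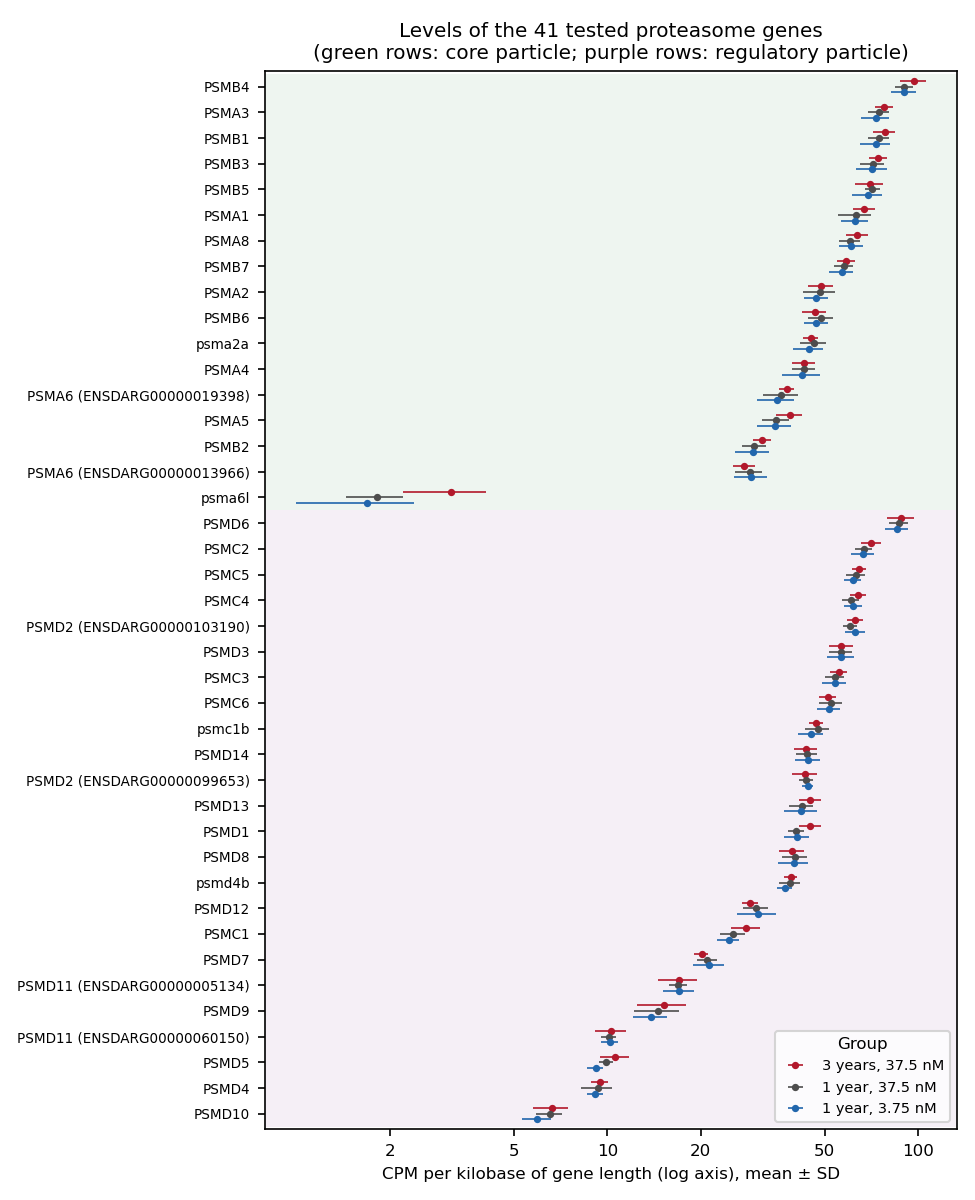
Levels of the 41 tested proteasome genes as CPM per kilobase of gene length on a log axis, with the mean and SD in each of the 3 groups (3-year fish at 37.5 nM in red, n = 7; 1-year fish at 37.5 nM in grey, n = 9; 1-year fish at 3.75 nM in blue, n = 10). Most genes lie between 20.9 and 92.0 CPM per kilobase with overlapping groups, and psma6l lies lowest, with the red mean above the other groups.

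Both genes that were not tested for low counts had little RNA. psmb11b, named for the beta subunit of the thymus in mammals, was at 0 counts in all 9 libraries of 1-year fish at 37.5 nM and reached at most 2 counts in any library. PSMC3IP matched the symbol pattern but encodes a cofactor of meiotic recombination, not a subunit. It averaged 0.251 ± 0.145 CPM in 3-year fish, against 0.344 ± 0.171 CPM in 1-year fish at 37.5 nM (SD, n = 7 and 9).

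Several subunits had more than 1 gene, and their shares were set on the scale of CPM per kilobase. For the alpha 2 subunit, psma2a made up 48.2% ± 2.05 of the pair in 3-year fish, against 48.9% ± 1.45 in 1-year fish at 37.5 nM and 48.5% ± 1.63 in 1-year fish at 3.75 nM. psmc1b made up 62.8% ± 1.61 of the ATPase pair with PSMC1 in 3-year fish, against 65.2% ± 2.05 and 64.8% ± 2.09 in the 1-year fish at 37.5 and 3.75 nM. psmd4b made up 80.5% ± 0.560 of the Rpn10 pair in 3-year fish, against 80.7% ± 0.806 and 80.3% ± 0.968 in these 1-year groups (all SD, n = 7, 9 and 10). The psma2a and psmd4b shares differed between groups by less than 1 SD. The psmc1b share differed by more than 1 SD with age, with overlapping ranges of 61.0% to 64.6% in 3-year fish, against 62.6% to 68.0% in 1-year fish at 37.5 nM, and was not tested.

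For the lid subunit Rpn6, the PSMD11 gene ENSDARG00000005134 held 62.0% ± 2.59 in 3-year fish, against 62.5% ± 0.983 in 1-year fish at 37.5 nM. The PSMD2 symbol also named 2 rows, ENSDARG00000103190 and ENSDARG00000099653, with recovered lengths of 1044 and 1542 bases. Their shares were 59.2% ± 2.08 and 40.8% ± 2.08 in 3-year fish, against 58.2% ± 1.73 and 41.8% ± 1.73 in 1-year fish at 37.5 nM. The RefSeq table of another build lists 1 gene under psmd2, so these rows may not be separate genes, and reads shared by near-identical copies make all such splits uncertain.

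Age was compared at 37.5 nM, in 3-year over 1-year fish. Of 41 tested subunit genes, 1 was higher in 3-year fish, 0 were lower and 40 did not pass (edgeR quasi-likelihood test, Benjamini-Hochberg adjusted p under 0.05). Over all 19887 genes tested, 4.92% were higher and 2.87% lower. At an unadjusted p under 0.05, 2 of the 41 subunit genes passed, against 25.6% of all genes. That count was 6 with the run of title numbers (described with the sums) as a covariate, and again 6 when replicate 3 of the 1-year fish at 37.5 nM was left out. Among 3-year fish, leaving out replicate 5 gave 5 genes and leaving out replicate 4 gave 4. The share of all genes at an unadjusted p under 0.05 was not taken in these other fits, so their counts have no background. At an edgeR adjusted p under 0.05, 1975 of all genes passed with the covariate and 1851 without replicate 5, against 1549 in the fit given first. The log2 fold changes of the 40 genes that did not pass lay between -0.07 and 0.15. All 40 of their 95% intervals lay within ±0.5 log2 units, and 35 lay within ±0.25. The median absolute log2 fold change was 0.05 over the subunit genes and 0.15 over all genes.

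The gene that passed was psma6l, which RefSeq lists with psma6b as a synonym, a minor gene of the alpha 6 subunit. In 3-year fish it had 2.27 to 6.27 CPM with a median of 4.52, against 1.77 to 3.22 CPM with a median of 2.83 in 1-year fish at 37.5 nM. Among 1-year fish at 3.75 nM it had 1.48 to 4.89 CPM with a median of 2.16. In the 3-year group, 6 of 7 fish lay above every 1-year fish at 37.5 nM, and replicate 1 lay at 2.27 CPM within their range. Its log2 fold change was 0.78 (SE 0.19, 95% interval 0.38 to 1.18), with an edgeR adjusted p of 0.0200. These levels rest on 33 to 201 counts per library.

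As a share of the 3 alpha 6 genes per kilobase, psma6l made up 4.58% ± 1.33 in 3-year fish, against 2.74% ± 0.571 in 1-year fish at 37.5 nM and 2.56% ± 0.916 in 1-year fish at 3.75 nM (SD, n = 7, 9 and 10). The main alpha 6 genes, PSMA6 ENSDARG00000019398 and PSMA6 ENSDARG00000013966, had log2 fold changes of 0.05 and -0.06 with age, and neither passed. In 16 fits that each left out 1 library, psma6l stayed past the threshold in 16, with adjusted p-values from 0.00329 to 0.0496. Without the libraries of the age comparison that had high tissue scores, its log2 fold change was 0.80 (SE 0.27), with an edgeR adjusted p of 0.127. Within the fish of lower title numbers it was 0.63 (SE 0.35, adjusted p = 0.508), and within those of higher title numbers 0.88 (SE 0.20, adjusted p = 0.0369).

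Immune cell markers moved with age in the same direction as psma6l. Summed microglia and macrophage markers had a median of 1678 CPM (range 1260 to 2085) in 3-year fish, against 1200 CPM (965 to 1520) in 1-year fish at 37.5 nM. Summed lymphocyte markers had a median of 23.1 CPM (12.7 to 44.6) in 3-year fish, against 7.51 CPM (4.80 to 35.3) in 1-year fish at 37.5 nM. No gene of either list was at 0 in all libraries. Their part in the psma6l result was not tested.

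**Figure D2:**
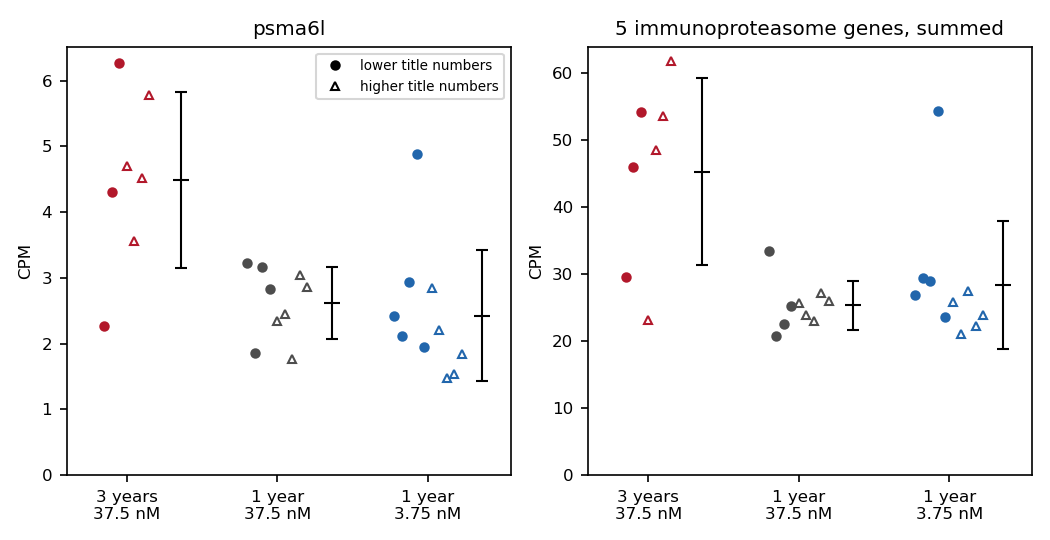
CPM of psma6l (left) and summed CPM of the 5 immunoproteasome genes (right) in each of 26 libraries, by group. Filled circles are fish of lower and open triangles fish of higher title numbers, and the black bars give the mean and SD of each group. psma6l averaged 4.48 CPM in 3-year fish, against 2.62 CPM and 2.42 CPM in the 1-year fish at 37.5 and 3.75 nM. Replicate 4 of the 1-year fish at 3.75 nM lies at 4.89 CPM, above the rest of its group. This library had high skeletal muscle and skin scores and the highest lymphocyte score of its group.

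The next 3 subunit genes by log2 fold change with age were PSMD1, PSMA5 and PSMC1, and none of them passed. PSMD1, a large scaffold subunit of the regulatory base, had 125 to 162 CPM with a median of 150 in 3-year fish, against 117 to 142 CPM with a median of 135 in 1-year fish at 37.5 nM. Its log2 fold change was 0.15 (SE 0.05), with an edgeR adjusted p of 0.0982. The alpha subunit PSMA5 had 49.3 to 61.6 CPM in 3-year fish, against 44.8 to 60.2 CPM in 1-year fish at 37.5 nM, a log2 fold change of 0.14 (SE 0.07, edgeR adjusted p = 0.231). The ATPase gene PSMC1 had 62.7 to 83.7 CPM in 3-year fish, against 57.0 to 75 CPM in 1-year fish at 37.5 nM, also a log2 fold change of 0.14 (SE 0.07, edgeR adjusted p = 0.233). All of these groups overlapped.

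None of the 3 catalytic subunits passed with age. PSMB5 averaged 91.5 ± 9.54 CPM in 3-year fish, against 93.1 ± 5.18 CPM in 1-year fish at 37.5 nM. PSMB6 averaged 58.5 ± 5.16 CPM in 3-year fish, against 61.4 ± 5.64 CPM in 1-year fish at 37.5 nM, and PSMB7 averaged 72.9 ± 4.97 CPM in 3-year fish, against 71.5 ± 5.15 CPM in 1-year fish at 37.5 nM (SD, n = 7 and 9). Their log2 fold changes of -0.03, -0.07 and 0.02 had 95% intervals of -0.15 to 0.10, -0.22 to 0.07 and -0.09 to 0.14. At the negative end stood PSMD7 and PSMB6 (both -0.07), then PSMD12 and PSMA6 ENSDARG00000013966 (both -0.06), and none of them passed.

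Core and regulatory genes had similar medians with age, a difference that was not tested. The median log2 fold change was 0.05 over 17 tested core genes and 0.02 over 24 tested regulatory genes, against 0.01 over all genes. Of the 41 genes, 30 had a positive value (73.2%), against 51.2% of all genes. These genes share the same libraries, so they are not separate events.

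The dose comparison set 37.5 nM against 3.75 nM in 1-year fish. It shares the 9 libraries at 37.5 nM with the age comparison. No subunit gene passed, 0 of 41 by edgeR, against 0.0508% of all 19691 genes tested (10 genes). By DESeq2 0 members passed, against 0.306% of all genes, and by limma voom with quality weights 0, against 0.0660%. At an unadjusted p under 0.05, 1 of 41 subunit genes passed, against 9.25% of all genes. Log2 fold changes ran from -0.06 to 0.14, with medians of 0.02 over core and 0.00 over regulatory genes, against -0.01 over all genes. Without the 1-year libraries with high tissue scores these medians were 0.13 over core and 0.09 over regulatory genes. Within the higher run of title numbers they were 0.10 and 0.05, against 0.01 over all genes in both fits. Within the lower run they were -0.01 over core and 0.01 over regulatory genes, against 0.00 over all genes. The fit without high-score libraries had fewer samples and left out replicates 1, 3, 4 and 5 at 3.75 nM, all of the lower run. At 37.5 nM it left out replicates 1 and 4 of the lower and 5 and 6 of the higher run. The part of the run in its medians was not tested. Of the 41 intervals, 40 lay within ±0.5 log2 units and 38 within ±0.25.

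The gene at an unadjusted p under 0.05 by dose was PSMD5, a chaperone of regulatory particle assembly. It had 18.6 to 22.2 CPM with a median of 21.3 in 1-year fish at 37.5 nM, against 17.3 to 21.0 CPM with a median of 19.4 in 1-year fish at 3.75 nM. Its log2 fold change was 0.11 (SE 0.05, edgeR adjusted p = 0.501). The chaperone PSMD10 had the highest value, 0.14 (SE 0.07, edgeR adjusted p = 0.578), and PSMD2 ENSDARG00000103190 the lowest, -0.06 (SE 0.04, edgeR adjusted p = 0.701). psma6l stood at 0.11 (SE 0.20), with the widest interval, -0.31 to 0.52. Without replicate 4 of the 1-year fish at 3.75 nM, psma6l stood at 0.29 (SE 0.16). It stood at 0.35 without the libraries with high tissue scores, at 0.35 within the higher run and at -0.05 within the lower run. It passed in none of these fits, and 0 of all genes passed without the high-score libraries or within the higher run.

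**Figure D3:**
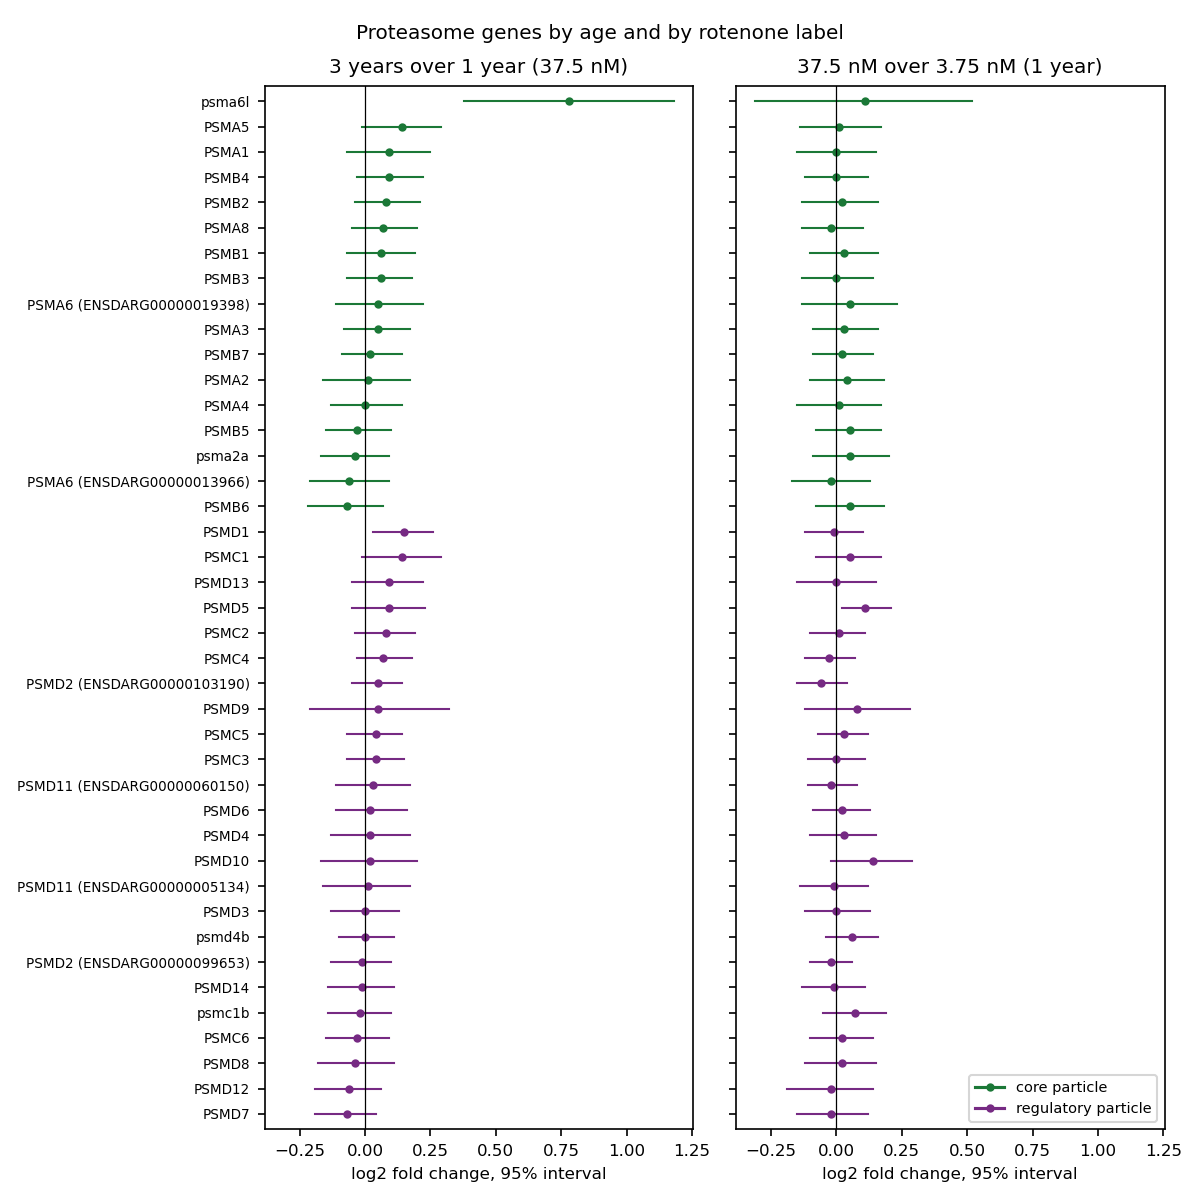
Log2 fold change (points) with its 95% interval (lines) of the 41 tested genes, for 3-year over 1-year fish at 37.5 nM (left) and for 37.5 over 3.75 nM in 1-year fish (right); core genes are green and regulatory genes purple. With age psma6l lies farthest from zero, at 0.78, the interval of PSMD1 (0.03 to 0.26) also lies above zero, and by dose all points lie between -0.06 and 0.14.

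Some other genes of the pathway differed with age. Of 6 activators and inhibitors of the proteasome, 2 were higher in 3-year fish, 0 were lower and 4 did not pass, against 4.92% of all genes higher and 2.87% lower. The 2 higher genes were PSME1 and PSME2, which encode the activator cap used with the immunoproteasome in antigen processing. PSME1 had 21.5 to 46.1 CPM in 3-year fish, against 13.4 to 18.5 CPM in 1-year fish at 37.5 nM, and PSME2 had 14.5 to 30.7 CPM in 3-year fish, against 7.21 to 12.7 CPM in 1-year fish at 37.5 nM. The groups at 37.5 nM did not overlap for either gene, as for 0.724% of all genes tested. In 1-year fish at 3.75 nM, PSME1 had 10.9 to 30.6 and PSME2 7.02 to 21.4 CPM, overlapping the 3-year fish. With age the log2 fold changes of PSME1 and PSME2 were 1.19 (SE 0.15, edgeR adjusted p = 0.000537) and 1.21 (SE 0.17, adjusted p = 0.000909).

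Of the 5 immunoproteasome genes, 1 was higher with age, against 4.92% of all genes, and the median log2 fold change was 1.06. All 5 had an unadjusted p under 0.05, against 25.6% of all genes. The gene was PSMB10, which replaces PSMB7 in the core when cells respond to interferon, at 16.0 to 31.0 CPM in 3-year fish, against 12.7 to 17.6 CPM in 1-year fish at 37.5 nM (log2 fold change 0.53, SE 0.11, edgeR adjusted p = 0.00919). Summed, the 5 genes reached 45.2 ± 13.9 CPM in 3-year fish, against 25.3 ± 3.59 CPM in 1-year fish at 37.5 nM and 28.4 ± 9.54 CPM in 1-year fish at 3.75 nM (SD, n = 7, 9 and 10). This equalled 4.36% ± 1.35 of the summed CPM of the constitutive core in 3-year fish, against 2.52% ± 0.400 in 1-year fish at 37.5 nM and 2.85% ± 0.814 in 1-year fish at 3.75 nM. That core sum holds all 18 core genes, alpha subunits included, and is not scaled by gene length. The share is thus not one of the replaced subunits alone.

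Replicate 4 of the 3-year fish stood apart for the other 4 immunoproteasome genes. PSMB8, PSMB9, psmb12 and psmb13a had 1, 5, 2 and 1 counts there (0.0379, 0.190, 0.0759 and 0.0379 CPM). In the other 6 fish of 3 years, PSMB8 had 2.41 to 15.1, PSMB9 2.36 to 10.8, psmb12 2.85 to 8.97 and psmb13a 1.88 to 8.59 CPM. PSMB10 was at 22.8 CPM in replicate 4, within the 16.0 to 31.0 CPM of the others. Without this library, a fit looked at after the values were seen, 5 of 5 genes were higher in 3-year fish, against 3.21% of all genes, with a median log2 fold change of 1.28 and edgeR adjusted p-values from 0.0075 to 0.0219. The sum was then 48.9 ± 10.9 CPM in 3-year fish (SD, n = 6). psma6l was at 4.70 CPM in replicate 4, within the range of its group. The immune cell markers moved in the same direction with age as these genes, and their part in the result was not tested.

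Of 12 genes for factors that control proteasome genes, 1 was higher and 0 were lower with age, against 4.92% and 2.87% of all genes. The gene was hsf1, a regulator of heat shock genes, at 22.4 to 33.8 CPM in 3-year fish, against 18.5 to 23.7 CPM in 1-year fish at 37.5 nM (log2 fold change 0.33, SE 0.09, edgeR adjusted p = 0.0411). The 1-year fish at 3.75 nM had 18.4 to 31.0 CPM of hsf1 with a median of 27.5, close to the median of 26.9 CPM in 3-year fish and above that of 22.4 CPM in 1-year fish at 37.5 nM. By dose its log2 fold change was -0.28 (SE 0.08, edgeR adjusted p = 0.378). NFE2L1, which shares its name stem with nfe2l1b, had 1.82 to 6.10 CPM in 3-year fish, against 0.866 to 3.09 CPM in 1-year fish at 37.5 nM, and did not pass (log2 fold change 0.98, SE 0.30, edgeR adjusted p = 0.0506). The more abundant nfe2l1b averaged 119 CPM in 3-year fish, against 111 CPM in 1-year fish at 37.5 nM, with a log2 fold change of 0.09 (SE 0.08). Of 5 assembly factors, 13 associated factors and 15 ubiquitin and p97 genes, 0 passed with age by edgeR. At an unadjusted p under 0.05 stood 1, 3 and 2 of them, against 25.6% of all genes. Their medians were 0.03, 0.02 and 0.01 on the log2 scale, against 0.01 over all genes. The assembly chaperone PSMG2 stood at 0.18 (SE 0.07), zfand5a at -0.30 (SE 0.12) and the ubiquitin gene UBB at 0.24 (SE 0.11). By dose, 0 genes of these 6 lists passed by edgeR. At an unadjusted p under 0.05 stood 3 of 11 tested regulators and 2 of 15 ubiquitin and p97 genes, against 9.25% of all genes. The regulators hsf1, nfe2l3 and MAFG ENSDARG00000100097 had negative log2 fold changes by dose (-0.28, -0.11 and -0.47). UBB and UBXN1 had positive ones (0.21 and 0.12).

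Across libraries the subunit genes varied little. The SD of log2 CPM within groups had a median of 0.128 over the 41 genes, against 0.247 over all tested genes and 0.204 over the 13520 tested genes in the same range of mean CPM. That range ran from 3.04 CPM (psma6l) to 137 CPM (PSMD1), so these genes were not matched to the subunit genes in level. The part of level in this difference was not tested. The median SD was 0.138 over core and 0.115 over regulatory genes, and the highest SD, 0.431, belonged to psma6l.

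Summed core genes averaged 1038 ± 68.0 CPM in 3-year fish, against 1007 ± 77.2 CPM in 1-year fish at 37.5 nM and 992 ± 100 CPM in 1-year fish at 3.75 nM. Summed regulatory genes averaged 1668 ± 91.2 CPM in 3-year fish, against 1628 ± 96.3 CPM and 1619 ± 113 CPM in the 1-year fish at 37.5 and 3.75 nM (SD, n = 7, 9 and 10). These means differed by less than 1 SD. The ratio of core to regulatory CPM was 0.622 ± 0.0175 in 3-year fish, against 0.619 ± 0.0264 in 1-year fish at 37.5 nM and 0.612 ± 0.0237 in 1-year fish at 3.75 nM. Over all 26 libraries the ratio had a coefficient of variation of 3.69%, against 8.28% for the core sum and 6.12% for the regulatory sum.

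The sums differed with the numbers in the sample titles. These fall into a lower run (163 to 181; 3 fish of 3 years, 4 of 1 year at 37.5 nM and 5 of 1 year at 3.75 nM) and a higher run (189 to 202; 4, 5 and 5 fish of these groups), and the labels do not say what separates them. Core genes summed to 1073 ± 56.1 CPM in the 12 fish of the lower run, against 956 ± 62.6 CPM in the 14 fish of the higher run. Regulatory genes summed to 1710 ± 80.5 CPM in the lower run, against 1571 ± 65.5 CPM in the higher run (SD, n = 12 and 14).

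The same direction held within each group. In 3-year fish the core sums were 1140, 1081 and 1077 CPM in the lower run, against 945, 979, 996 and 1048 CPM in the higher run. In 1-year fish at 37.5 nM they were 1011, 1025, 1163 and 1035 CPM in the lower run, against 930, 951, 921, 1067 and 960 CPM in the higher run. In 1-year fish at 3.75 nM they were 1053, 1150, 1069, 1087 and 985 CPM in the lower run, against 896, 890, 839, 1020 and 934 CPM in the higher run. For the core sums the runs did not overlap in 3-year fish, and overlapped through 1 fish of the higher run in each 1-year group. For the regulatory sums they overlapped in 3-year fish (1651 to 1828 CPM in the lower run, against 1572 to 1657 CPM in the higher run) and in 1-year fish at 3.75 nM (1599 to 1787 CPM in the lower run, against 1429 to 1665 CPM in the higher run). They did not overlap in 1-year fish at 37.5 nM, at 1629 to 1850 CPM in the lower run, against 1539 to 1618 CPM in the higher run.

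**Figure D4:**
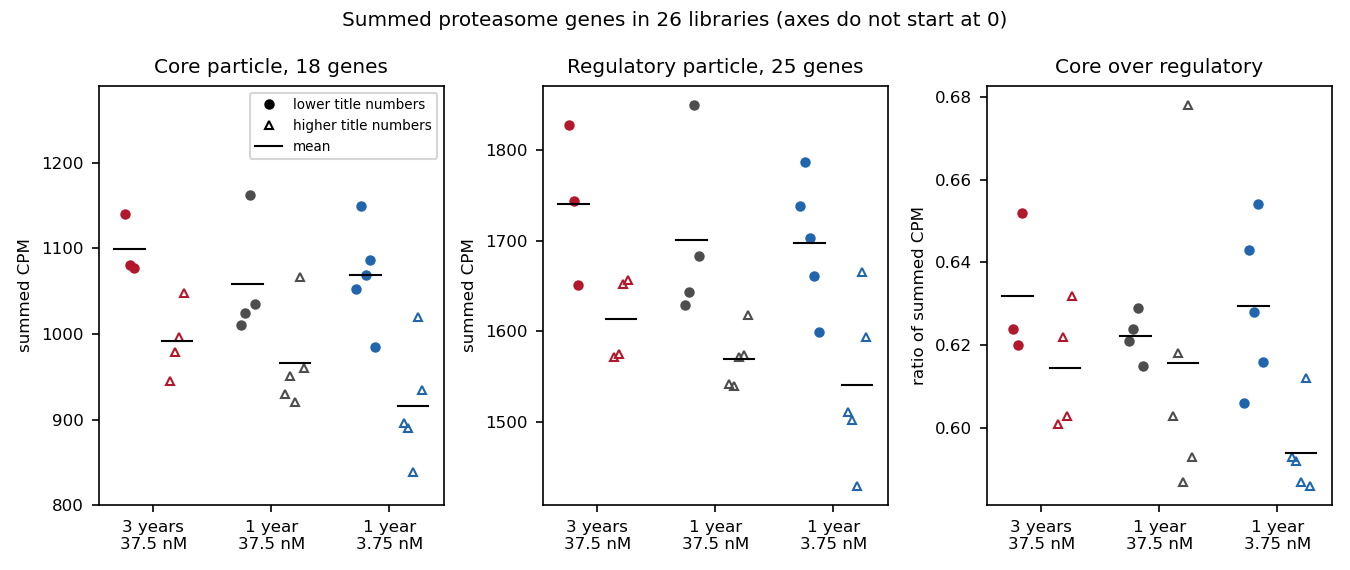
Summed CPM of 18 core genes (left) and 25 regulatory genes (middle) and their ratio (right) in 26 libraries, by group and by run of title numbers; filled circles are the lower run, open triangles the higher run, and lines the means. In all 3 groups the mean of the lower run lies above that of the higher run, for example at 1099 against 992 CPM for the core in 3-year fish.

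Tested with the groups as covariates in a fit of all 26 libraries, a comparison added after seeing the data, 32 of 42 genes were higher in the lower run and 0 were lower (edgeR, adjusted p under 0.05). Over the 21424 genes tested, 10.9% were higher in the lower run and 10.8% lower. PSMC3IP, which encodes no subunit, was the 42nd gene tested here and did not pass. The median log2 fold change was 0.16 over these 42 genes, 0.19 over core and 0.14 over regulatory genes with PSMC3IP, against 0.01 over all genes. Of 41 subunit genes tested in each group alone, 38 had a positive value in all 3 groups (92.7%), against 26.1% of all genes. Core and regulatory sums moved together over the libraries, so the genes in these counts are not separate events. Within 3-year fish alone 0 of 41 subunit genes passed by run, with 0 of all 20246 genes, and the median was 0.15. Within 1-year fish at 37.5 nM 0 of 41 passed, against 0.192% of all genes higher, with a median of 0.13. Within 1-year fish at 3.75 nM 2 of 41 were higher (4.88%), against 0.532% of all genes, with a median of 0.19.

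The genes with the smallest p by run were PSMD13, PSMA8 and PSMA5, and the 32 that passed had log2 fold changes of at most 0.26. PSMD13, a lid subunit, averaged 70.0 ± 3.31 CPM in the lower run, against 59.3 ± 3.8 CPM in the higher run, a log2 fold change of 0.26 (SE 0.03, edgeR adjusted p = 1e-05). PSMA5 averaged 56.2 ± 4.16 CPM in the lower run, against 48.0 ± 4.31 CPM in the higher run (log2 fold change 0.25, SE 0.04, edgeR adjusted p = 0.000198). PSMA8, under whose RefSeq entry psma7 is a synonym, averaged 88.5 ± 4.55 CPM in the lower run, against 77.8 ± 3.84 CPM in the higher run (log2 fold change 0.20, SE 0.03, edgeR adjusted p = 4.63e-05; SD, n = 12 and 14).

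The 10 genes that did not pass by run were PSMB6 and psma6l of the core, and PSMC1, PSMD1, PSMD2 ENSDARG00000103190, PSMD3, PSMD4, PSMD5, PSMD10 and PSMC3IP. The scaffold gene PSMD1 averaged 139 ± 10.5 CPM in the lower run, against 135 ± 13.5 CPM in the higher run, a log2 fold change of 0.05 with a 95% interval of -0.04 to 0.15. PSMD2 ENSDARG00000103190 averaged 63.8 ± 3.56 CPM in the lower run, against 65.5 ± 4.35 CPM in the higher run, a log2 fold change of -0.02 with an interval of -0.10 to 0.05. The ratio of core to regulatory CPM was 0.628 ± 0.0150 in the lower run and 0.608 ± 0.0248 in the higher run.

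Other pathway genes were compared in the same fit. Of 15 ubiquitin and p97 genes, 10 were higher in the lower run and 0 lower, and of 5 assembly factors 3 were higher. Of 13 associated factors, 4 were higher and 2 lower, of 12 regulators 2 were higher and 3 lower, of 6 activators and inhibitors 1 was higher, and of 5 immunoproteasome genes 1 was higher. These counts stand against the same 10.9% and 10.8% of all genes.

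Other measures moved with the run as well. Library totals ranged from 20609926 to 30488678 counts in the lower run, against 23048139 to 36028646 counts in the higher run. Summed oligodendrocyte markers had a median of 11058 CPM (6834 to 15708) in the lower run, against 14738 CPM (9702 to 18914) in the higher run, and red blood cell markers one of 150 CPM (65.9 to 226) in the lower run, against 258 CPM (130 to 346) in the higher run. Neuron markers had a median of 8663 CPM in the lower run, against 8691 CPM in the higher run. High tissue scores were found in 6 of 12 libraries of the lower and 4 of 14 of the higher run. The part of these measures in the result was not tested. Without the 10 libraries with high tissue scores, 8 of the 42 genes with PSMC3IP were higher in the lower run, against 1.53% of all genes, and the median log2 fold change was 0.19, against -0.02 over all genes. Another edgeR test asked whether the age and dose differences varied with the run. In either comparison 0 subunit genes passed, with 0 of all genes. At an unadjusted p under 0.05 stood 1 of 41 subunit genes by age, against 1534 of all 19887 genes. By dose the count was 2 of 41, against 1452 of all 19691 genes.

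**Figure D5:**
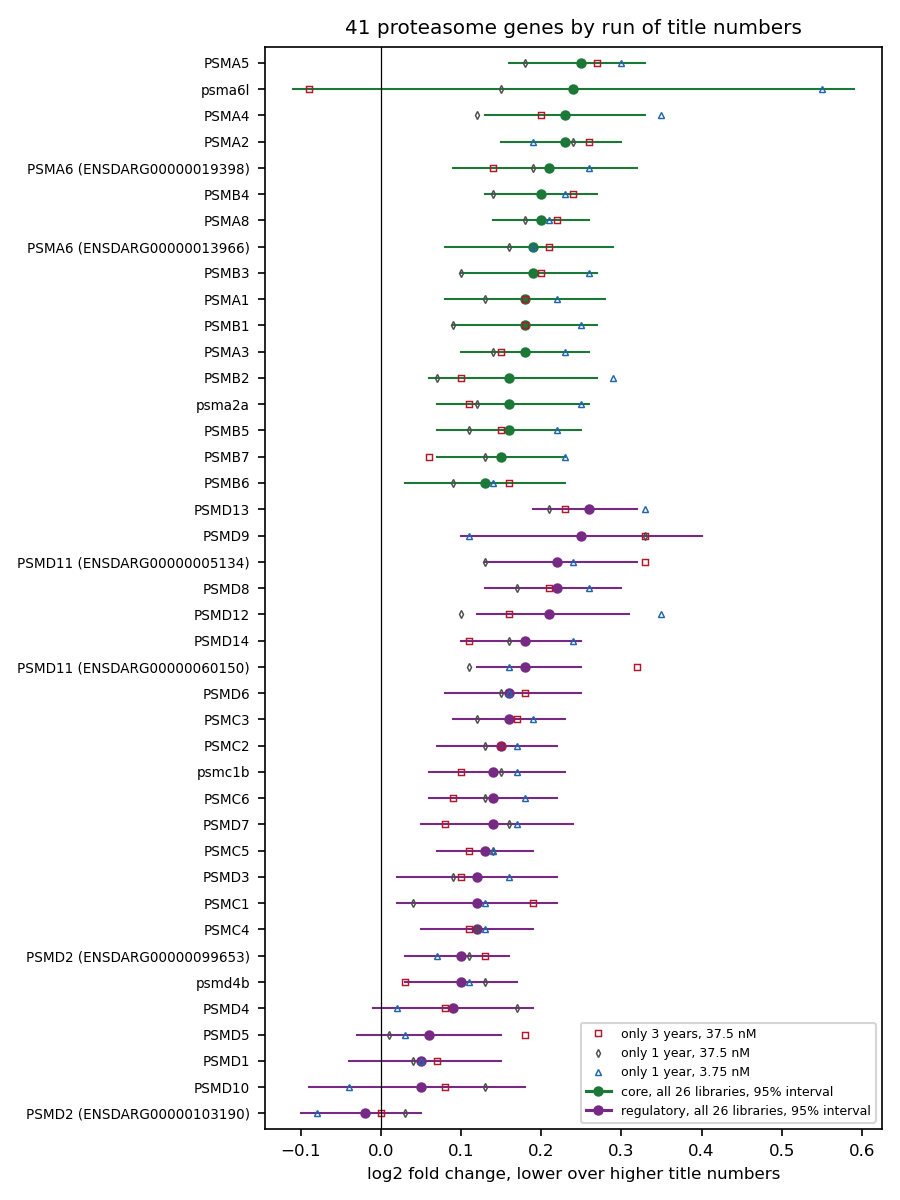
Log2 fold change of the lower over the higher run of title numbers for 41 proteasome genes, with the 95% interval from all 26 libraries (circles and lines; core green, regulatory purple) and the value within each group alone (open symbols). Nearly all points lie right of zero, with core genes from 0.13 to 0.25, and the lowest from all 26 libraries is PSMD2 ENSDARG00000103190 at -0.02. PSMC3IP, which encodes no subunit, is not drawn.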

How the data were processed

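Whole-number read counts for 32105 Ensembl genes were deposited by the authors, raw and not normalized, in a pair of tables. Per the labels' protocols, libraries used the TruSeq RNA Kit v2 of Illumina, which does not mark strand. The build GRCz10 and the tools featureCounts 1.4.6-p4, STAR 2.4.1d and CASAVA 1.8.2 are named, with no role or order, per the submitters' processing notes. How reads with several matches were counted is not given in the sources used here. The authors also deposited tables named RPKM, treated as a score: each count is divided by gene length and by a library total that changes from row to row and repeats every 50 rows. These scores served only to recover gene lengths, which came out whole (within 0.05 bases) for 6427 of 6523 rows with at least 300 counts in every library (98.53%).

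Symbols came from a table naming 26269 genes (81.8%). CPM used TMM factors over 26 libraries. Tests used edgeR 4.0.16 in R 4.3.3 (quasi-likelihood, robust, filterByExpr, Benjamini-Hochberg over all genes tested), with DESeq2 1.42.0 and limma 3.58.1 as alternatives, SciPy 1.17.1 in Python 3.11.15 and matplotlib 3.10.9. Fold changes are log2, the first-named group over the second, and intervals use the fit's t distribution at 95%. The functions were tested on simulated data. Alternatives were other scaling, filters and tools, leaving out each library or those with high tissue scores, and adding the title number run to the model or fitting each run apart. Replicate numbers follow the order of the samples. P-values measure the spread between these samples, taken as separate fish from their numbers.

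The members and gene lists were chosen with earlier results of these data known. Members named were those past a threshold, the 5 with the smallest p and the 3 at each end of the log2 fold changes in each comparison, the 5 highest and 5 lowest by mean CPM, those not tested, and paralogs. PSMB5, PSMB7, the high genes per kilobase and those named by run were added after their values were seen. One gene that the naming rule picked is not reported here.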

Additional observations from a re-analysis of the deposited data

Results flagged for a closer look

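In each group, the highest and lowest fish were compared with the nearest of the others by Dixon's criterion. Of 132 such tests 16 were met (12.1%), where chance gives about 1 in 20 for separate tests. These tests share libraries and are not separate, so the share is no measure of an excess over chance. Replicate 3 of the 1-year fish at 37.5 nM met the criterion, as the highest of its group, for 10 regulatory genes. The genes were PSMC3 at 106 CPM (others 86.3 to 93.1), PSMC6 at 98.5 (74.8 to 84.0), psmc1b at 86.2 (66.7 to 75), PSMC1 at 75 (57.0 to 65.8), PSMD3 at 129 (100 to 112), PSMD12 at 97.7 (73.3 to 85.0), PSMD8 at 89.9 (68.0 to 78.8), psmd4b at 70.2 (54.8 to 60.5), PSMD4 at 21.5 (14.5 to 17.9) and PSMD10 at 10.3 CPM (7.61 to 8.94). Its summed regulatory CPM was 1850, against 1539 to 1683 in the others. This fish was also the highest of its group for genes of both particles that did not meet the criterion. Examples were PSMC4 at 137 CPM and the core gene PSMB2 at 58.8 CPM. Its core sum, 1163 CPM, was the highest of its group as well. These genes share a library, so they are not separate events.

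Replicate 1 of the 3-year fish was high for the catalytic PSMB5, at 112 CPM against 82.2 to 91.3 in the other 6 fish, and for the ATPase gene psmc1b, at 79.4 CPM against 68.5 to 70.9. Replicate 8 of the 1-year fish at 3.75 nM was low for PSMC1, at 49.0 CPM against 59.6 to 68.4. Replicate 4 of the same group was high for psma6l, at 4.89 CPM against 1.48 to 2.94. That library also had skeletal muscle and skin scores 3.74 and 3.32 log2 units above their medians. Its lymphocyte score, 0.69 log2 units above the median, was the highest of its group. Its immunoproteasome sum of 54.3 CPM was the highest of its group. The part of other tissue or of immune cells in these values was not tested. Replicate 8 of the 1-year fish at 37.5 nM had a core to regulatory ratio of 0.678, against 0.587 to 0.629 in the others.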

How the results depend on the processing

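By age, 1 subunit gene passed, and leaving out 1 library gave 1 to 2 (942 to 2156 of all genes). Without the libraries of the age comparison that had high tissue scores 0 passed. In the lower run of title numbers alone 0 passed as well, both settings with fewer samples. The second gene among the fits without 1 library was PSMD1, at 0.19 (SE 0.05, edgeR adjusted p = 0.0199) without replicate 5 of the 3-year fish. Without the high-score libraries and in the lower run alone psma6l stood at 0.80 (adjusted p = 0.127) and 0.63 (adjusted p = 0.508). In these settings 617 and 16 of all genes passed by age. By dose, 0 subunit genes passed under every alternative run (2 to 12 of all genes without 1 library). Without the high-score libraries and within the higher run alone, 0 of all genes passed by dose, so these fits could single out no subunit gene. No named value changed sign while past the threshold, a check that no subunit gene could fail by dose, since none passed. The dose medians without 1 library ran from -0.01 to 0.05 over core and from -0.02 to 0.03 over regulatory genes. Of the 5 immunoproteasome genes, 1 passed with age with all libraries and 5 without replicate 4 of the 3-year fish. By run, leaving out 1 library gave 29 to 34 genes higher, against 3890 to 4875 of all genes past the test in either direction. Without the high-score libraries 8 were higher, against 1.53% of all genes. Within the 3-year fish alone 0 were higher, against 0% of all genes. Within the 1-year fish at 37.5 nM and those at 3.75 nM 0 and 2 were higher, against 0.192% and 0.532%. Without the 3-year fish 26 were higher, against 5.5% of all genes. Without the 1-year fish at 37.5 and at 3.75 nM 20 and 11 were higher, against 6.81% and 3.66%. All these settings had fewer samples, and the median log2 fold change stayed between 0.13 and 0.19. Of the 5 genes highest by CPM per kilobase, 1 was among the 5 highest by plain CPM, a scale that also counts gene length. No paired analysis was possible because replicate numbers follow the order of the samples and pair no fish. The planned promoter motif search was not run, for want of sequences.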

Other observations

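psma6l and the summed immunoproteasome genes were compared fish by fish, on the log2 scale, in 3 relations chosen after seeing the data. Pearson's r was 0.50 in 3-year fish (n = 7, exact permutation p = 0.248, adjusted p = 0.248), 0.63 in 1-year fish at 37.5 nM (n = 9, exact permutation p = 0.0648, adjusted p = 0.0971) and 0.78 in 1-year fish at 3.75 nM (n = 10, permutation p = 0.0182, adjusted p = 0.0546), all two-sided. Spearman's rho was 0.57, 0.57 and 0.45, with permutation p-values of 0.200, 0.121 and 0.192 (adjusted 0.200 each; exact for n = 7 and 9). No relation had an adjusted p under 0.05. Without the 2 fish farthest from the median immunoproteasome level, r was 0.73, 0.35 and 0.48. The values of r in the 1-year groups thus rest in part on those fish. At 3.75 nM the highest immunoproteasome sum, 54.3 CPM, was that of replicate 4. This library had high skeletal muscle and skin scores and the highest lymphocyte score of its group.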
